A study of Mus musculus with 6 samples.

Results

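Collagens are trimers of chains wound into a helix, and each type is built from its own chains. The 10 chains described here are Col6a1 and Col6a2 of type VI, Col5a1 and Col5a2 of type V, Col18a1 of type XVIII, Col4a1 and Col4a2 of type IV, Col7a1 of type VII, and Col1a1 and Col1a2 of type I. They were taken by gene symbol from the platform annotation, where 8251 genes had at least 1 probe set of their own. All 10 were on the array, by 18 probe sets, and the chains were chosen by their measured log2 differences on these same 6 arrays, which is the comparison described below. Levels and differences of the chains are therefore given as a description without a test.

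Type IV collagen forms the network of every basement membrane, the sheet on which basal keratinocytes sit. Type VII collagen builds the anchoring fibrils that tie this sheet to the dermis, and type XVIII is a basement membrane collagen that carries heparan sulfate and whose end releases endostatin. Type VI forms beaded microfibrils close to basement membranes, while types I and V form the banded fibrils of the dermis, type V within fibrils of type I. Fibroblasts are the usual main source of types I, V and VI in skin, and keratinocytes of type VII.

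The 6 arrays hold RNA of keratinocytes from the skin of K15-EGFP mice, in which a keratin 15 promoter drives enhanced green fluorescent protein (EGFP), a marker of the hair follicle bulge where the follicle stem cells rest. Cells were sorted into an EGFP-high and an EGFP-negative group of 3 arrays each. Both groups carry the transgene and both were gated as positive for α6 integrin, a surface protein of basal cells, so they differ by EGFP alone as far as the labels say. The labels read for this work leave out age, sex, strain, pooling of mice and whether replicates came from separate mice, so the spread between arrays may be partly technical.

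Values are probe set intensities on a linear scale. Background was read from 19 control probe sets of bacterial and yeast genes, whose 95th percentile lay between 25.5 and 42.2 on the 6 arrays. Differences are EGFP-high minus EGFP-negative of log2(intensity + 19.3), a scale that shrinks the differences of dim probe sets. Of the basal keratinocyte markers Col17a1, Dsp and Perp were bright in both groups (5918.5 to 8601.8), and Krt14 (6.8 to 22.2) and Krt15 (1.7 to 7.4) were at background on all arrays. Itga6, which encodes the gated α6 integrin, was lower in EGFP-high cells (log2 -1.26, SE 0.18, limma adjusted p = 0.00449). Across all 7453 probe sets tested with limma, 5.19% passed a Benjamini-Hochberg adjusted p of 0.05, 3.02% higher and 2.17% lower in EGFP-high.

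The sequences below stand upstream of the type VI and type XVIII genes, which lie near each other on mouse chromosome 10 and read higher in EGFP-high keratinocytes by their brightest probe sets. Each run is the 250 bases before an annotated start, from RefSeq's table of the GRCm38.p6 assembly, all on the minus strand and written 5′ to 3′. Capitals mark matches, on either strand, to 4 short motifs of promoters. The first is the GC box of Sp1-family factors, GGGCGG. Another is the CCAAT box, named by its letters. The TATA box was searched for as TATAAA. The binding site of Fos and Jun dimers, called the AP-1 site, was searched for as TGANTCA. No marked matches overlap in these runs. Col6a1 has 1 start, chr10:76726045-76726294. Col6a2 has 2 starts, and the outer one is shown, chr10:76623631-76623880. Col18a1 has 2 starts 52825 bases apart, and both are shown, the outer at chr10:77166531-77166780 and the inner at chr10:77113706-77113955.
Col6a1: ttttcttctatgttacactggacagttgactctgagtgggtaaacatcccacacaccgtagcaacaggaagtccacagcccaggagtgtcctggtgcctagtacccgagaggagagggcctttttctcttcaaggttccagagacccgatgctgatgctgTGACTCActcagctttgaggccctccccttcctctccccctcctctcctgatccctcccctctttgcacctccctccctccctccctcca
Col6a2, outer start: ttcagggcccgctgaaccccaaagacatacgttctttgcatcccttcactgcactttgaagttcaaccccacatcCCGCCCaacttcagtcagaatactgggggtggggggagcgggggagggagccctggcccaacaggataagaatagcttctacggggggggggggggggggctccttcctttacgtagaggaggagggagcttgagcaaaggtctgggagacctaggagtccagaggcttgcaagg
Col18a1, outer start: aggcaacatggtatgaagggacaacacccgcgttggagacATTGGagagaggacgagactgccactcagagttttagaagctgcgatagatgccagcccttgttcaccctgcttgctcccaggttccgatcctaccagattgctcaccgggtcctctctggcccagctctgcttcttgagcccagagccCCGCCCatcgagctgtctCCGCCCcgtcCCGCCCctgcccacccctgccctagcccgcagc
Col18a1, inner start: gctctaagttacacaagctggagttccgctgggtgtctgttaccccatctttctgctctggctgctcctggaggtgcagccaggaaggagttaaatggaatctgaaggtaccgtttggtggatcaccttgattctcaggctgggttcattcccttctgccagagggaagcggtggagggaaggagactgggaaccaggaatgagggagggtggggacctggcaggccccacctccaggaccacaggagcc

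The run of Col6a1 holds 1 match to the AP-1 site, a motif present in 6.75% of all 32851 promoter windows of the same length. That of the outer Col6a2 start holds 1 match to the GC box, present in 32.7% of windows, and the window of its inner start, not shown, holds 3, overlapping ones included. The outer run of Col18a1 holds 3 GC boxes and 1 CCAAT box, the latter present in 33.8% of windows, and its inner run holds none of the 4 motifs. No run holds the TATA box, which 12.4% of windows do. The 4 runs share no single motif.

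Both type VI chains read higher in EGFP-high keratinocytes by their brightest probe sets. Col6a1 read 1113.0, 1649.6 and 1346.4 on EGFP-high replicates 1, 2 and 3, and 273.6, 297.1 and 316.6 on EGFP-negative replicates 1, 2 and 3. Every EGFP-high array lay above every EGFP-negative one, with means of 1369.7 ± 269 and 296 ± 21.5 (SD, n = 3 arrays each, as for all means below), a ratio of means of 4.63 and a log2 difference of 2.12. The differences for numbers 1, 2 and 3, each an EGFP-high array against the EGFP-negative array of the same number, were 1.95, 2.40 and 2.02 on the log2 scale.

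Col6a2, the partner chain, read 243.4, 466.7 and 404.9 in EGFP-high against 100.7, 88.4 and 86.6 in EGFP-negative keratinocytes, in replicate order. The groups again did not overlap (means 372 ± 115 and 91.9 ± 7.67), and the log2 difference was 1.77, with 1.13, 2.17 and 2 for the 3 numbers. Numbers 2 and 3 gave nearly equal differences for the 2 chains, which were apart by 0.23 and 0.02, while number 1 set Col6a1 0.82 above Col6a2. The other, dimmer probe set of Col6a1, of a class whose probes may match related transcripts, read 273.4, 547.3 and 508.9 in EGFP-high. It lay at background in EGFP-negative cells, between 6.7 and 16.3, so the size of its log2 difference of 3.80 depends on the constant added before the logarithm.

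Col6a3 is the chain that completes the common type VI trimer. Its probe set read 47.2, 37.5 and 37.1 in EGFP-high and 31.9, 46.7 and 29.9 in EGFP-negative keratinocytes, in replicate order. These values lay near the upper range of the controls in both groups, too dim to be tested, and the groups overlapped. A probe set near background may miss its transcript, so these values set no level for Col6a3.

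Col18a1 had 5 probe sets, which agreed in direction where they were bright and differed in size. The brightest read 805.2, 879.6 and 809.1 in EGFP-high and 479.2, 333.2 and 477.6 in EGFP-negative keratinocytes, a ratio of means of 1.93 and a log2 difference of 0.94. The groups did not overlap, and EGFP-high arrays lay close together (SD 41.9 around a mean of 831). The next brightest on EGFP-high arrays read 339.2, 580.5 and 768.3 against 112.4, 84.4 and 117.9, a log2 difference of 2.17.

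The largest Col18a1 difference came from a probe set that read 207.2, 492.0 and 594.4 in EGFP-high. In EGFP-negative cells it was within the control range, 21.4 to 29.2, so its log2 difference of 3.25 depends on the added constant. Another probe set had a log2 difference of 1.60 and did not overlap either. The last read 18.0 to 30 in EGFP-high and 25.2 to 38.6 in EGFP-negative cells, near background throughout, and was not tested. Those with the 3 larger differences belong to classes whose probes may match related transcripts, and the annotation used does not tie a probe set to 1 of the Col18a1 starts.

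**Figure D1:**
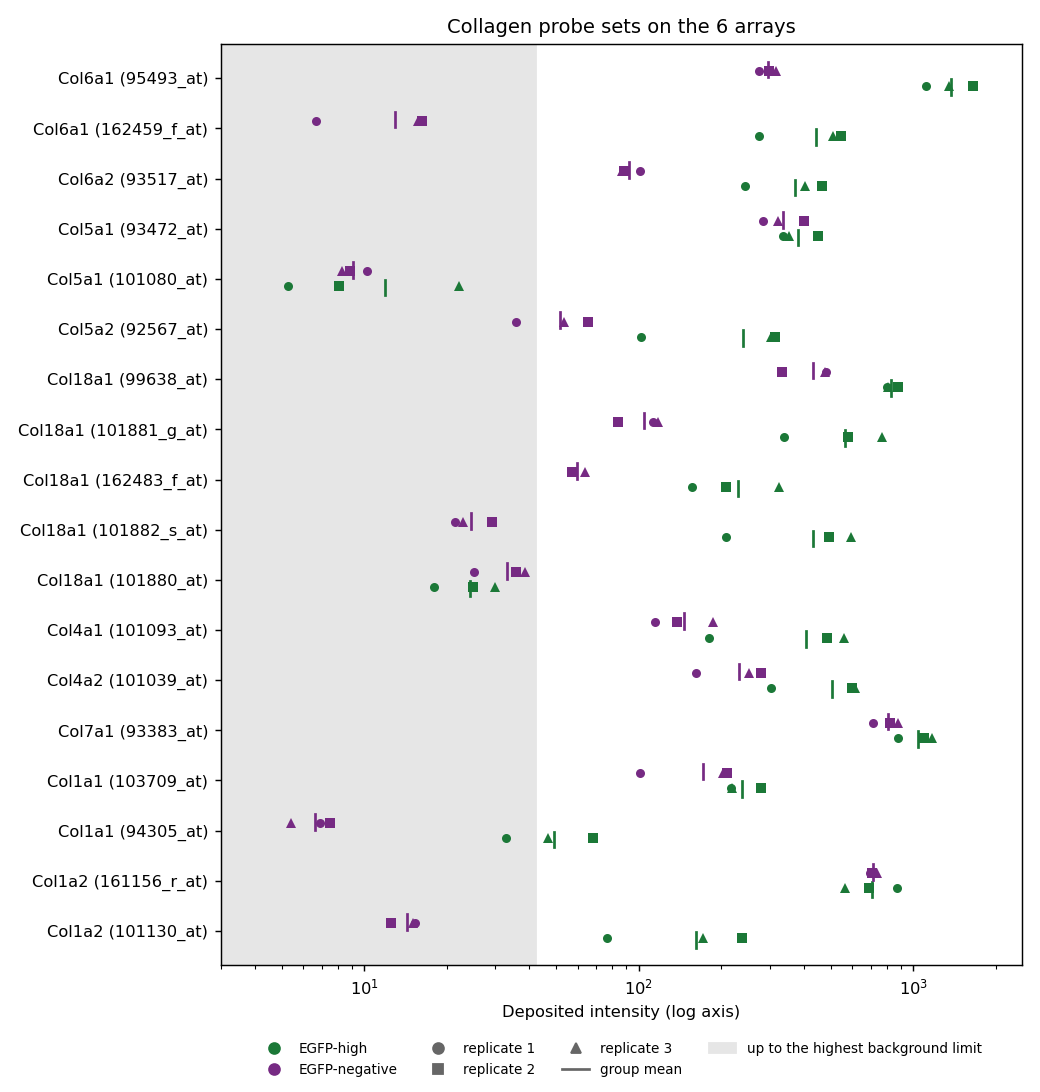
Deposited intensity on a log axis for the 18 collagen probe sets, with green for EGFP-high, purple for EGFP-negative, a marker shape for each replicate number and a short bar at each group mean; grey reaches to 42.2, the highest 95th percentile of the controls. For 12 of the 18 probe sets all 3 green points lie to the right of all 3 purple ones. Among the tested ones this holds for 11 of 15, and for 11.6% of all tested probe sets. The chains were chosen from this contrast, so nothing is read from these counts. In each of those 12 the green circle, EGFP-high replicate 1, is the lowest green point.

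The genes between and beside these chains on chromosome 10 were read for comparison, a choice made after the collagen values were seen. RefSeq's order of protein-coding genes runs Col6a2, Col6a1, Pcbp3, Slc19a1 and Col18a1. Slc19a1, a folate carrier, read 167.2, 78.2 and 105.2 in EGFP-high and 120.4, 86.2 and 95.6 in EGFP-negative cells (log2 difference 0.14, limma adjusted p = 0.843). Beyond the ends, Lss (log2 -0.10, limma adjusted p = 0.909), Pofut2 (log2 0.34, adjusted p = 0.751) and Adarb1 (log2 0.24, adjusted p = 0.562) did not pass the threshold either. With 5.33% of all tested genes called, so few genes set nothing apart about the locus.

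Type V chains parted by their brightest probe sets. Col5a2 read 102.0, 313.9 and 303.5 in EGFP-high and 35.6, 65.6 and 53.6 in EGFP-negative keratinocytes, in replicate order, with no overlap, means of 240 ± 119 and 51.6 ± 15.1, and a log2 difference of 1.75. Its partner Col5a1 read 336.2, 449.0 and 352.4 in EGFP-high and 284.4, 399.9 and 322.9 in EGFP-negative cells, with overlapping groups, means of 379 ± 61 and 336 ± 58.8, and a log2 difference of 0.17. The difference of Col5a1 minus that of Col5a2 was negative for every replicate number, at -0.91, -1.81 and -2.03 on the log2 scale for numbers 1, 2 and 3. Leaving out 1 array moved Col5a1 between 0.05 and 0.30 and Col5a2 between 1.5 and 2.23. The other probe set of Col5a1 was at background on all arrays, between 5.3 and 22.2, so the parting rests on 1 probe set for each chain.

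Col5a2 stands beside Col3a1, the fibrillar type III chain of dermal fibroblasts, on mouse chromosome 1. The brightest Col3a1 probe set read 38.0, 22.4 and 17.1 in EGFP-high and 35.2, 22.1 and 7.3 in EGFP-negative cells. All 3 probe sets of Col3a1 were at background on all 6 arrays, where a probe set may miss its transcript, so they set no level for Col3a1. On the other side, Wdr75 read 109.7 to 149.5 in EGFP-high and 120.5 to 156.4 in EGFP-negative keratinocytes (log2 -0.06, limma adjusted p = 0.914).

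Type IV chains moved together. Col4a1 read 180.3, 486.5 and 558.5 in EGFP-high and 114.4, 137.8 and 186.2 in EGFP-negative keratinocytes, with means of 408 ± 201 and 146 ± 36.6, a ratio of 2.79 and a log2 difference of 1.25. Col4a2 read 303.5, 597.7 and 614.7 against 162.3, 279.7 and 252.5, with means of 505 ± 175 and 232 ± 61.5 and a log2 difference of 1.03. Both chains were higher in EGFP-high for each number, by 0.58, 1.69 and 1.49 for Col4a1 and by 0.83, 1.05 and 1.22 for Col4a2. The Col4a1 groups overlapped through EGFP-high replicate 1 alone, which lay at 180.3 under EGFP-negative replicate 3 at 186.2, and the Col4a2 groups did not overlap.

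On mouse chromosome 8 Col4a1 is transcribed from the minus and Col4a2 from the plus strand, and the genes extend away from each other. Their annotated starts lie 21 bases apart in RefSeq's GRCm38.p6 table, placed so that the first bases of both transcripts overlap. Across the 6 arrays their log2 profiles correlated at r = 0.961, against 0.981 for Col6a1 with Col6a2 and 0.663 for Col5a1 with Col5a2. These are descriptions over 6 arrays that fall into 2 groups, so a shared group difference alone makes r high. Of the neighbours of type IV, Irs2 read 33.7 to 250.2 in EGFP-high and 28.1 to 193.1 in EGFP-negative cells (limma adjusted p = 0.816). The alternative type IV chain Col4a5, which pairs with other partners, read 53.3 to 109.9 in EGFP-high and 70.9 to 109.9 in EGFP-negative cells (log2 -0.09, limma adjusted p = 0.908).

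Col7a1, the anchoring fibril chain, was bright in both groups. It read 876.7, 1090.9 and 1168.1 in EGFP-high and 715.2, 825.7 and 880.4 in EGFP-negative keratinocytes. The means were 1045.2 ± 151 and 807 ± 84.2, the log2 difference 0.36, and the groups overlapped by 1 array, EGFP-high replicate 1. The differences by number were close, at 0.29, 0.39 and 0.40.

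Type I chains depended on the probe set. The brighter for Col1a1 read 217.8, 278.0 and 218.6 in EGFP-high and 101.3, 209.0 and 202.3 in EGFP-negative cells, a log2 difference of 0.49 that ran from 0.10 for number 3 to 0.98 for number 1. Its groups did not overlap, though EGFP-high replicate 1 and EGFP-negative replicate 2 were only 217.8 and 209.0. The other read 32.8, 67.9 and 46.7 against 5.4 to 7.5, dim in EGFP-high and at background in EGFP-negative cells, and was not tested.

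Col1a2 showed the same split between its probe sets. The brighter, of a class whose probes were picked under relaxed rules, read 870.8, 688.0 and 565.3 against 695.4, 705.4 and 736.8, with no common direction over the 3 numbers (0.32, -0.04 and -0.37). The other read 76.7, 237.2 and 171.7 in EGFP-high and 12.5 to 15.3 in EGFP-negative cells, a log2 difference of 2.32 from a background level. With the mean of both probe sets in place of the brighter, Col1a2 read 1.14 on the log2 scale. For both type I chains the dimmer probe set showed the larger difference, and these arrays do not settle a direction for Col1a2.

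**Figure D2:**
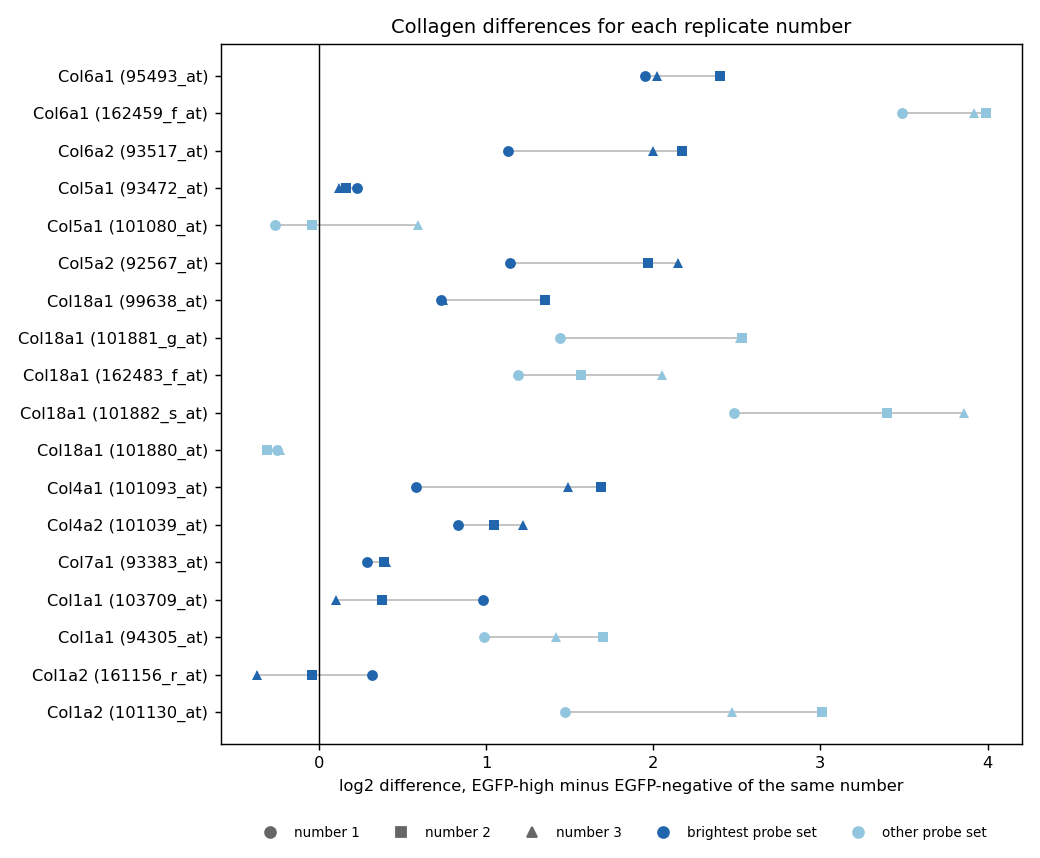
The log2 difference between the EGFP-high and EGFP-negative array of the same number for each collagen probe set, with a marker shape for each number, dark for the brightest probe set of a gene and pale for the others. Both type VI chains and both type IV chains lie to the right of 0 for all 3 numbers. Col5a2 lies between 1.14 and 2.15 while the brightest Col5a1 probe set stays between 0.12 and 0.23, and the brightest Col1a2 probe set spans 0.

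Over the 10 genes by their brightest probe set the median log2 difference was 0.99, against -0.002 for all tested probe sets. Of the 18 probe sets 15 passed the filter on low values. A set of 15 that is not quite the same was higher in EGFP-high for all 3 numbers, and the share over all probe sets was not counted. The groups did not overlap for 11 of the 15 tested, all with EGFP-high above, where 11.6% of all tested probe sets did so. In the fit across all probe sets 9 of the 15 were called higher, with 3.02% called higher overall. The chains were proposed from this contrast and the filter favours those that are high in 1 group, so nothing is read from these counts.

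EGFP-high replicate 1 was the lowest of its group for all 12 collagen probe sets without overlap. Among all tested probe sets with every EGFP-high array above every EGFP-negative one it was the lowest for 448, or 51.7%, and among the 225 called higher for 169, or 75.1%. A fit without both arrays of number 1 took out EGFP-negative replicate 1 as well, so it does not measure EGFP-high replicate 1 alone. It gave log2 differences of 2.21 for Col6a1, 2.09 for Col6a2, 2.06 for Col5a2, 1.59 for Col4a1, 1.13 for Col4a2 and 1.04 for Col18a1. In the same fit Col7a1 had 0.40, Col1a1 0.24, Col5a1 0.14 and Col1a2 -0.20. For Col1a1 the EGFP-negative array left out was the low one of its group (101.3 against 209.0 and 202.3). Without EGFP-high replicate 1 alone the median over the 10 genes was 1.16, the highest of the values from leaving out each of the 6 arrays, which began at 0.89.

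The genes whose profile over the 6 arrays was most like the mean of Col6a1 and Col6a2 were Hoxd8 (r = 0.999), Palm and Pdlim3 (both 0.998), and App and Lrrfip1 (both 0.997). Hoxd8, a homeobox factor, read 262.0, 544.2 and 402.3 in EGFP-high and 34.1 to 42.6 in EGFP-negative cells. Palm followed the shape with a much smaller log2 difference of 0.52, since r does not depend on size. For the mean of Col4a1 and Col4a2 they were Plpp3 (r = 0.993) and Grina, Rrbp1, Med23 and Pdcd6ip (all 0.990). For the mean of Col5a1 and Col5a2, which follows Col5a2 more than the nearly level Col5a1, they were Fbln1 (0.995), Sod1 (0.993), Nrbp2 (0.990), Nrtn (0.988) and Vdr (0.987). All these genes have the highest r among the tested probe sets with 1 symbol. Over 6 arrays in 2 groups a shared group difference alone makes r high. Fbln1, a matrix protein of basement membranes and elastic fibres, is described again with the collagen partners.

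The other collagens of the array did not pass the threshold. Of 21 other collagen chains 9 were tested, with 0 higher and 0 lower by limma's adjusted p, where 3.06% of all tested genes were called higher and 2.27% lower. None of the 9 had an unadjusted p under 0.05, and adding the replicate block to the model also called 0. Col17a1, the transmembrane collagen of hemidesmosomes, read 6848.8, 8601.8 and 8023.5 in EGFP-high and 7528.2, 7025.7 and 6527.3 in EGFP-negative keratinocytes, with overlapping groups (log2 0.15, SE 0.15, limma adjusted p = 0.692). Col8a1 (log2 -0.05) and Col9a1 (log2 -0.05) were the brighter chains with the smallest differences. The 9 had a median log2 difference of 0.15.

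Of 15 tested genes that fold, modify and cross-link collagen 1 was called, a share near the 5.33% of all tested genes. Serpinh1, the collagen chaperone of the endoplasmic reticulum, rose in EGFP-high. It read 444.1, 665.2 and 662.8 against 225.1, 277.5 and 236.7, without overlap (log2 1.18, SE 0.19, limma adjusted p = 0.00849). Without EGFP-high replicate 3 its call was lost (adjusted p = 0.0522). Loxl1, a cross-linking oxidase (log2 0.78, adjusted p = 0.0648), and P3h4, a partner of collagen hydroxylases (log2 0.71, adjusted p = 0.103), passed with the replicate number as a block (adjusted p = 0.035 and 0.0455). Ppib and Crtap, which act together in prolyl hydroxylation, had log2 differences of -0.02 and -0.06, and the prolyl hydroxylase P4ha1 -0.44 (adjusted p = 0.237). The list's median was 0.24.

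Collagen receptors held 1 higher and 1 lower gene of 7 tested, where 3.06% of all tested genes were called higher and 2.27% lower. Ddr1, the receptor tyrosine kinase that binds collagen in epithelia, rose from 1124.0, 1032.3 and 894.5 in EGFP-negative to 1498.6, 1686.7 and 1609.6 in EGFP-high cells (log2 0.65, SE 0.15, limma adjusted p = 0.044). Antxr2, the anthrax toxin receptor that binds type IV and type VI collagen, read 26.8, 41.5 and 32.5 in EGFP-high against 82.7, 82.7 and 71.8 (log2 -0.90, SE 0.21, adjusted p = 0.0453). Both calls were lost when any 1 of the 6 arrays was left out, with adjusted p up to 0.165 for Ddr1 and 0.141 for Antxr2. Both were also lost without the filter, that of Ddr1 with arrays scaled to a common median or without the intensity trend, and that of Antxr2 with 25% of the constant. In EGFP-high Antxr2 was near background, so its size depends on the added constant. The integrin chains Itgb1 (log2 0.28, adjusted p = 0.586), Itga3 (log2 -0.16, adjusted p = 0.712) and Itga2, a collagen-binding chain (log2 0.29, adjusted p = 0.634), did not pass.

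Among laminins and other basement membrane proteins 2 of 14 tested genes rose and 1 fell, against the same 3.06% and 2.27% of all tested genes. Sparc, which binds type IV and fibrillar collagens, read 293.7, 1138.9 and 888.2 in EGFP-high and 95.5, 121.5 and 138.3 in EGFP-negative keratinocytes (log2 2.34, SE 0.42, limma adjusted p = 0.0129), with a lost call without EGFP-high replicate 3 (adjusted p = 0.0691). Npnt, an integrin ligand of the basement membrane, rose by a log2 value of 2.50 (SE 0.23, adjusted p = 0.000451) and Smoc2, a relative of Sparc, fell by 2.21 on the log2 scale (SE 0.19, adjusted p = 0.000343). Lama3 (log2 0.16, adjusted p = 0.72) and Lamc1 (log2 -0.26, adjusted p = 0.505) were the brighter genes with the smallest differences. Hspg2, the perlecan core protein, read 71.7, 73.5 and 134.8 against 53.4, 54.2 and 55.4 (log2 0.57, adjusted p = 0.274). Agrn (log2 0.66, adjusted p = 0.0718) and Smoc1 (log2 1.35, adjusted p = 0.0892) passed with the replicate block (adjusted p = 0.0272 and 0.0375).

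Of 16 tested partners of collagen fibrils and elastic fibres 3 rose and 1 fell, with 3.06% higher and 2.27% lower over all tested genes. Postn, a matricellular protein that binds collagen, read 6971.0, 7693.6 and 7891.6 in EGFP-high against 1202.6, 1281.9 and 1486.9, a rise by a log2 value of 2.49 (SE 0.15, limma adjusted p = 5.18e-05). Tnc, an adhesion-modulating glycoprotein, read 172.4, 163.0 and 225.8 in EGFP-high against 53.8, 35.8 and 55.5 (log2 1.61, SE 0.21, adjusted p = 0.00239). Fbln1 read 478.9, 888.6 and 867.7 against 281.9, 394.8 and 351.1 (log2 1.04, SE 0.25, adjusted p = 0.0487), and this call was lost without any 1 of 5 arrays (the highest adjusted p, 0.19, came without EGFP-high replicate 3) and with 25% of the constant, no filter, a common median or no trend (adjusted p 0.0512 to 0.084). Its other tested probe sets had log2 differences of 1.96 (adjusted p = 0.0133) and 0.38 (adjusted p = 0.274).

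Thbs2, a matricellular protein needed for regular collagen fibrils, fell by 1.46 on the log2 scale (SE 0.28, limma adjusted p = 0.0158), a call lost without any of 3 arrays (the highest adjusted p, 0.0733, came without EGFP-high replicate 3). By their brightest probe sets Tgfbi (log2 0.24, adjusted p = 0.737) and Bgn (log2 0.31, adjusted p = 0.481) were the brighter partners with the smallest differences. The other tested probe set of Bgn was higher in EGFP-high without overlap (log2 0.98, limma adjusted p = 0.0712) and did not pass the threshold. With the mean of probe sets in place of the brightest, Bgn had a log2 difference of 0.64. Matn2, a matrilin, passed with the replicate block (log2 0.99, adjusted p = 0.0688 without it and 0.0152 with it). Leaving out both arrays of number 1 gave 7 called genes in this list, 6 higher and 1 lower. Fmod, a fibril-binding proteoglycan, was not tested because of its low mean. It read 97.8, 184.2 and 94.7 in EGFP-high and 8.0 to 8.5, at background, in EGFP-negative cells. The other Fmod probe set was at background on all arrays, at 5.1 to 5.4 in EGFP-high and 4.0 to 21.3 in EGFP-negative cells. Fmod is named here after its values were seen.

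Of 11 tested proteases and inhibitors of collagen turnover 1 rose and 0 fell, so few that the count is not set apart from the 3.06% and 2.27% over all tested genes. Timp2, an inhibitor of metalloproteinases, read 388.2, 274.9 and 525.2 in EGFP-high against 91.3, 98.0 and 90.5 (log2 1.84, SE 0.22, limma adjusted p = 0.00207). The membrane collagenase Mmp14, which acts with Timp2 to activate Mmp2, read 863.4, 901.5 and 847.7 against 754.2, 605.4 and 688.3, without overlap (log2 0.35, adjusted p = 0.274). Ctsb, a lysosomal protease, had a log2 difference of -0.11 by its brightest probe set (adjusted p = 0.81). Its other tested probe sets had 0.42 and 0.44, without overlap (adjusted p = 0.292 and 0.264). Ctsl, another lysosomal protease, passed no threshold with all arrays (log2 0.78, limma adjusted p = 0.214). Without EGFP-high replicate 1 the list held 2 called genes. Mmp3, the metalloproteinase stromelysin, was not tested because of its low mean. It read 28.5, 9.2 and 7.2 in EGFP-high and 84.4, 39.4 and 44.9 in EGFP-negative cells, without overlap, and it too is named after its values were seen.

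**Figure D3:**
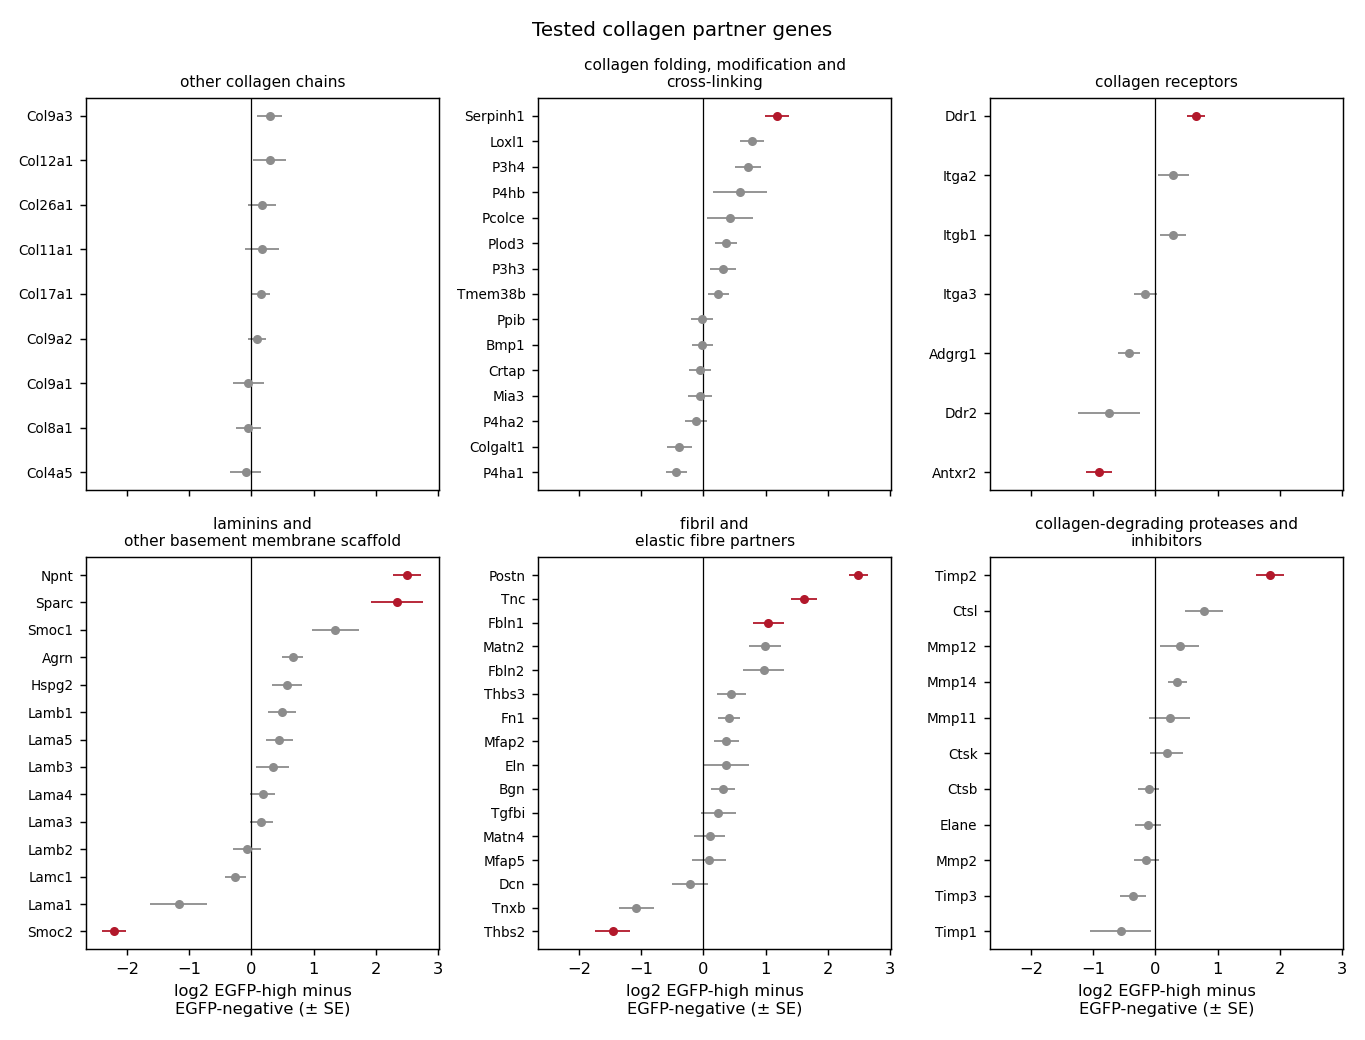
The log2 difference, EGFP-high minus EGFP-negative, with its limma SE for each tested gene of 6 lists of collagen partners, red for an adjusted p under 0.05 and grey otherwise. The 9 other collagen chains all lie near 0 in grey, and the red points are Serpinh1, Ddr1, Antxr2, Npnt, Sparc, Smoc2, Postn, Tnc, Fbln1, Thbs2 and Timp2.

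Markers of cells that could carry collagen transcripts into the sort were read beside these values, and in bulk RNA fewer cells of a type cannot be told apart from less RNA per cell. Of 17 fibroblast markers 6 were at background on all 6 arrays, namely Col3a1, Dpt, Fap, Mfap4, Pdgfrb and Twist1. Krt14 and Krt15 were at background too in these sorted keratinocytes. A probe set at background may miss its transcript, so such readings, here and in the lists below, do not show that a cell type is absent. Dcn read 25.4 to 57.9 in EGFP-high and 36.9 to 66.7 in EGFP-negative cells, and Pdgfra 108.7 to 126.7 and 120.1 to 183.9. Fbln2 read 82.5 to 144.0 and 23.7 to 81.6, and Fn1 135.1 to 144.6 and 87.2 to 125.5. Both lay higher in EGFP-high without overlap (log2 0.97 and 0.41, limma adjusted p = 0.15 and 0.284). Of 8 tested, Fbln1 rose and Thy1 fell (log2 -1.51, limma adjusted p = 0.0382), and 4 had an unadjusted p under 0.05. The summed intensity of the 17 ran from 1246.8 to 1901.4 in EGFP-high and from 1250.8 to 1363.4 in EGFP-negative cells. Without Fbln1 it ran from 768 to 1012.8 in EGFP-high and from 906 to 969 in EGFP-negative cells. This second sum takes out the called gene that rose and keeps Thy1, the one that fell. Thy1 read 18.4, 59.4 and 85.1 in EGFP-high and 164.1, 207.1 and 154.6 in EGFP-negative cells. The second sum therefore does not show that the remaining markers were level. The list shares 8 genes with the fibril partners, which are 8 of 17 and 8 of 26.

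**Figure D4:**
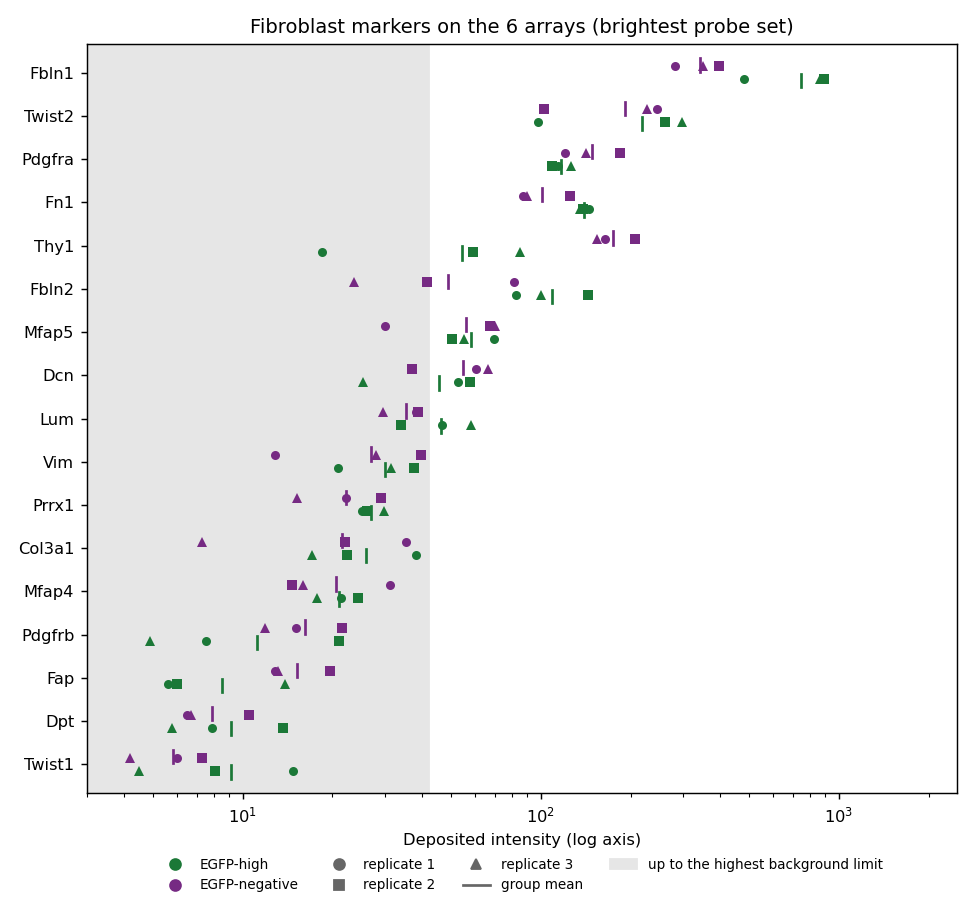
Deposited intensity on a log axis of the 17 fibroblast markers, each by its brightest probe set, with green for EGFP-high, purple for EGFP-negative, marker shapes for replicate numbers and short bars at group means. Fbln1 lies to the right in green and Thy1 in purple. Col3a1, Dpt, Fap, Mfap4, Pdgfrb and Twist1 sit in the grey range, up to 42.2, in both groups. So do Vim and Prrx1, though each passed the background limit of at least 1 single array.

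Markers of other cell types were summed in the same way, and sums of different lists are not compared with each other. Smooth muscle and pericyte markers, of which 10 were on the array, summed to 790 to 1026.8 in EGFP-high and 890 to 1011.8 in EGFP-negative cells, with 0 of 6 tested called, 2 with an unadjusted p under 0.05 and 2 at background on all arrays. Endothelial markers summed to 426 to 543 against 450 to 540, with 5 of 11 at background on all arrays, Cdh5 among them, and 0 of 2 tested called or with an unadjusted p under 0.05. Dermal papilla markers summed to 185 to 231 against 197 to 222, with 3 of 7 at background and 0 of 2 tested called or under 0.05 unadjusted.

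Sums for melanocyte markers were 614 to 711 in EGFP-high against 453 to 498, where Mitf rose (log2 1.13, limma adjusted p = 0.0147) as 1 of 4 tested. The rest of the tested ones did not pass, namely Pmel (log2 0.49, limma adjusted p = 0.479), Sox10 (log2 0.31, adjusted p = 0.468) and Dct (log2 -0.07, adjusted p = 0.89). For adipocyte markers the sums were 556 to 681 against 313 to 393 and Lep, the only tested gene of 6, rose (log2 0.79, adjusted p = 0.0382). Lep made up most of these sums, at 429.2 to 568.1 against 248.9 to 334.5, so they say little of the other adipocyte markers. The dimmer Lep probe set, not tested, read 29.6 to 32.0 against 27.1 to 31.9. Schwann cell markers summed to 712 to 796 against 654 to 887 and leukocyte markers to 652 to 879 against 465 to 674, with 0 of 4 and 0 of 3 tested called, and 1 and 2 with an unadjusted p under 0.05. The part of these cells in the collagen differences was not tested. The ratio of the 3′ to the 5′ actin control, a measure of RNA integrity, was 1.42 to 2.03 in EGFP-high and 1.26 to 1.59 in EGFP-negative arrays, and its part was not tested either.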

How the data were processed

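The values the authors deposited are linear intensities, 12488 probe sets on each of 6 arrays. All columns share a trimmed mean (2% off either end) of 150.1, which shows a scaling to 1 target, and medians lay between 69.75 and 76.2. Software, background correction and filters: not given in the sources used here. The number of arrays limits the precision.

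Gene names came from the platform annotation, which gave 10833 probe sets 1 symbol, 396 several and 1193 none. Symbols were checked by Entrez identifier in RefSeq's GRCm38.p6 table, which matched 10817 probe sets and changed 0 symbols. The 66 control rows were left out. Values were analysed as log2(intensity + 19.3), where 19.3 is the 25th percentile of values above 0. Probe sets with a mean log2 above the 40th percentile (an intensity near 44.5) were tested with limma 3.58.1 in R 4.3.3 (lmFit, eBayes with an intensity trend, two-sided, Benjamini-Hochberg over 7453 probe sets, threshold 0.05), a procedure tested on simulated data. A gene was represented by its brightest probe set.

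Deviations from group means correlated at 0.336, 0.368 and 0.305 between same-numbered arrays of the 2 groups (numbers 1, 2 and 3), all above the limit of 0.1, so the numbers, which come from the titles, were taken to pair the arrays. Fits are without this block unless stated.

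The chains and gene lists were chosen with earlier results of these data known. Named were all probe sets of the 10 chains, every called gene of a partner list (at most 8), the 2 brighter genes with the smallest differences in each list, and the 5 genes most like each chain pair. Brighter means at or above the list's median mean log2. Genes named outside this rule were picked after their values were seen: Col6a3, Col17a1, Col3a1, Col4a5, Hspg2, P4ha1, Itga2, Ctsl, Fmod, Mmp3, Loxl1, P3h4, Agrn, Smoc1, Matn2 and the chromosomal neighbours. Alternatives varied the constant, filter, scaling, trend, probe set rule, block and arrays.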

Additional observations from a re-analysis of the deposited data

How the results depend on the processing

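The number of called probe sets was 387, 778 with the replicate block, and 191 (without EGFP-high replicate 3) to 499 when arrays were left out; without EGFP-high replicate 2 it was 225. The called genes of the folding list came to 3 with the replicate block, 2 without the intensity trend or with the mean of probe sets, and 0 to 2 when arrays were left out. Collagen receptors gave 1 with 25% of the constant, the 60th percentile filter, a common median, no trend or the mean of probe sets, 0 without a filter, and 0 to 1 with arrays left out. Basement membrane genes gave 5 with the block and 2 to 5 with arrays left out. Fibril partners gave 2 to 7 with arrays left out. Proteases and inhibitors gave 0 with the mean of probe sets and 1 to 2 with arrays left out. The other collagen chains gave 0 under every alternative run. Beyond the calls named beside the results, the replicate block changed no call of a listed partner gene.

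The median log2 difference of the 10 chains was 1.20 with the mean of probe sets in place of the brightest, against 0.99. That alternative moved Col6a1 to 2.96, Col18a1 to 1.54 and Col1a2 to 1.14. Leaving out 1 array moved Col4a1 between 0.96 and 1.73, Col5a1 between 0.05 and 0.30 and Col1a1 between 0.19 and 0.65. No gene named as called changed its sign under any alternative run, while Col1a2 did, as did Col8a1, Col9a1, Ppib, Crtap, Tgfbi and Ctsb, which were near 0. Both chains of a type had a log2 difference above 0 in 3 of 4 types, type V with its small value for Col5a1 among them. The alternative without both arrays of number 1 was added after the data were seen. Probe sets at background in 1 group, among them the dimmer one of Col6a1, limit what their differences can say.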
